A study of Mus musculus with 70 samples.

Results

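The cerebral cortex of Cic-S-KO mice was compared with that of WT mice at 12 weeks of age, over all genes expressed there. The comparison held 7 Cic-S-KO and 8 WT cortex samples, which were chosen by their labels and made up 15 of the 70 samples of the series. The series also held lung and cerebellum, and a second knockout, Cic-L-KO. The 8 Cic-L-KO cortex samples entered the same fit, and the 8 WT, 7 Cic-S-KO and 8 Cic-L-KO cerebellum samples of the same age served for comparison between tissues. WT samples were littermates pooled from both knockout lines, so neither knockout could be set against the littermates of its own line alone. The labels name the genotype, tissue and age, and give no strain, no description of the alleles and no statement that each sample came from a different mouse. The p-values therefore measure the spread between these samples, which may be in part technical. All cortex libraries carried the same batch label.

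Capicua, the protein made from Cic, is a DNA-binding repressor that works in a complex with ATXN1 or its relative ATXN1L and is switched off by RAS to ERK signalling. Its gene has a pair of promoters: the upstream one gives the long isoform and an internal one gives the short isoform, and the isoforms share the DNA-binding HMG box but differ at their N-terminus. In the brain, loss of Capicua is known for its effects on neuronal development and on cells of the oligodendrocyte lineage, which make the myelin sheath around axons. The genotype names stand for knockouts of the short (S) and the long (L) isoform.

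The start sites that separate the isoforms are shown first, since the loss of one or the other is what tells the knockouts apart. RefSeq (GRCm38.p6) places the start sites of Cic on the plus strand of chromosome 7, 14480 bases apart. The 250 bases before each start are printed 5′ to 3′ in lower case. Capitals mark an octamer bound by Capicua, TGAATGAA, TGAATGGA, TCAATGAA or TCAATGGA on either strand, and neither Cic window held one.
Cic, upstream start (long isoform), chr7:25267449-25267698: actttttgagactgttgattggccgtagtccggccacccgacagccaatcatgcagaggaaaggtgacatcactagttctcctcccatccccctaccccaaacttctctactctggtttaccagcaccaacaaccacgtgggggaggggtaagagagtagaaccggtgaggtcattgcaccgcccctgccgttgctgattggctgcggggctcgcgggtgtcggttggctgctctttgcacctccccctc
Cic, internal start (short isoform), chr7:25281929-25282178: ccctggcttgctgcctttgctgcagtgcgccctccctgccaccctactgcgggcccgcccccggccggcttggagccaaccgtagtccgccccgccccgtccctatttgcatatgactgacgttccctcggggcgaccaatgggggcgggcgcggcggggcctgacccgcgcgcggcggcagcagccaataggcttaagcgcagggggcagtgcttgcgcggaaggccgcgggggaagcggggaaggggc

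The promoters of 4 genes of myelinating cells that differed in the cortex of Cic-S-KO mice follow. Mog, Gal3st1 and Gjc3 were picked for their octamer after the values were seen, and Hapln2 for the size of its fall. Mog encodes a protein of the outer face of myelin, Gal3st1 the enzyme that makes the myelin lipid sulfatide, Gjc3 a connexin of myelinating cells and Hapln2 a link protein that holds the hyaluronan matrix at nodes of Ranvier, the gaps between myelin segments. Mog, Gjc3 and Hapln2 lie on the minus strand and Gal3st1 on the plus strand. Gal3st1 has 3 start sites in RefSeq, and the most downstream is shown.
Mog, chr17:37023399-37023648: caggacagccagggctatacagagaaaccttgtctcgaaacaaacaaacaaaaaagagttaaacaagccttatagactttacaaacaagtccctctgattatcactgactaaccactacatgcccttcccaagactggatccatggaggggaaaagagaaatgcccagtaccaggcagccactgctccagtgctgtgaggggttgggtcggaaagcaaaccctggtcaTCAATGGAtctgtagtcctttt
Gal3st1, chr11:3989683-3989932: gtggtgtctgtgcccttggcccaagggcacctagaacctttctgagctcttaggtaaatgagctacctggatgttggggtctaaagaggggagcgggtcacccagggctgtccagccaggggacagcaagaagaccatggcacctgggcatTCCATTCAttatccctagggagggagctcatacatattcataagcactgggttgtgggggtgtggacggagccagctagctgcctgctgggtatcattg
Gjc3, chr5:137963099-137963348: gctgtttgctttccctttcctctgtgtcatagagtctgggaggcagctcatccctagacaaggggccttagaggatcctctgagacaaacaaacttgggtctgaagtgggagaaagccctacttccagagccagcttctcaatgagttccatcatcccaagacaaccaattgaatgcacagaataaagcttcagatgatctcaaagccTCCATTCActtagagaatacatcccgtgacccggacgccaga
Hapln2, chr3:88027512-88027761: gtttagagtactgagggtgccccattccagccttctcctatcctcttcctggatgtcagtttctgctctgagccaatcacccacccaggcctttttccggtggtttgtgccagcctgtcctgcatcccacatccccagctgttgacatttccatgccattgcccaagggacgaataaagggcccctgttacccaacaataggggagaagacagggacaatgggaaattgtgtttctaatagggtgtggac
The octamer began 22 bases before the start of Mog, 99 before that of Gal3st1 and 42 before that of Gjc3. Over windows of 300 bases (250 before and 50 after the start), at least 1 of the octamers was in 372 of the 11781 tested genes with a promoter in RefSeq (3.16%). The share was 3.01% of genes higher in Cic-S-KO (4 of 133) and 4.52% of genes lower (7 of 155) that passed with and without the adjustment for GC content described below, both near the share among all tested genes. A match describes the letters in the window and is not evidence of binding.

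The measure was the count of reads per gene, scaled to the library's total as CPM with TMM normalization, which corrects for differences in composition between libraries. Total counts ranged from 21724461 to 27793760 in WT and from 20763813 to 32548951 in Cic-S-KO. Markers of cortical layers were present in every library: the 10 tested upper-layer markers summed to 927 to 1117 CPM (median 1042) in WT and 909.8 to 1066 CPM (median 1000.3) in Cic-S-KO, and the 12 deep-layer markers to 608 to 642 CPM (median 622) in WT and 556 to 663 CPM (median 629) in Cic-S-KO. Y-linked genes were above 1 CPM in 4 of 8 WT and 3 of 7 Cic-S-KO libraries, so both sexes were in both groups.

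Other sources of RNA differed between libraries. Markers of striatal neurons, which lie deeper than the cortex, summed to 251 to 752 CPM (median 399) in WT and 246 to 894 CPM (median 784) in Cic-S-KO. All 11 tested members had a log2 fold change above 0, with a median of 0.65, although none passed the test and the groups overlapped. Among them, Ppp1r1b, which encodes the dopamine-signalling protein DARPP-32, read 58.6 to 172 CPM (median 93.7) in WT and 66.8 to 222 CPM (median 188) in Cic-S-KO. Choroid plexus markers, led by the thyroxine carrier Ttr, summed to 23.5 to 619.9 CPM (median 33.0) in WT and 11.5 to 652 CPM (median 22.8) in Cic-S-KO. In both genotypes the highest library was far above the median, and 0 of the 9 choroid plexus markers passed.

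Libraries also differed in how their counts depended on the GC content of genes. For each library, the deviation of each gene's log2 CPM from its mean over libraries was regressed on GC content. The slope per 10 percentage points of GC was -0.0329 ± 0.0231 (SD, n = 8) in WT and 0.0235 ± 0.0277 (SD, n = 7) in Cic-S-KO. It ranged from -0.0648 to 0.00108 in WT, from -0.0147 to 0.0584 in Cic-S-KO and from -0.0208 to 0.0684 in Cic-L-KO. The slope differed between WT and Cic-S-KO in a two-sided exact permutation test (p = 0.00171, adjusted over 4 library measures p = 0.00684), while the other 3 measures, which were the slope on exon length, the mitochondrial share of counts and the total count, did not pass (adjusted p from 0.154 to 0.521). The plot of GC slopes and of the median change by GC content shows what this did to fold changes: when the tested genes were split by GC content into 5 groups of equal size, the median log2 fold change rose from -0.05 in the lowest group to 0.07 in the highest. For this reason the genotypes were also compared after an adjustment for GC content: genes were put into 20 bins by GC content, and the median deviation of a library's genes in a bin was taken off. Changes that passed with and without this adjustment are described first. Whether the slope is technical in origin was not tested.

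**Figure D1:**
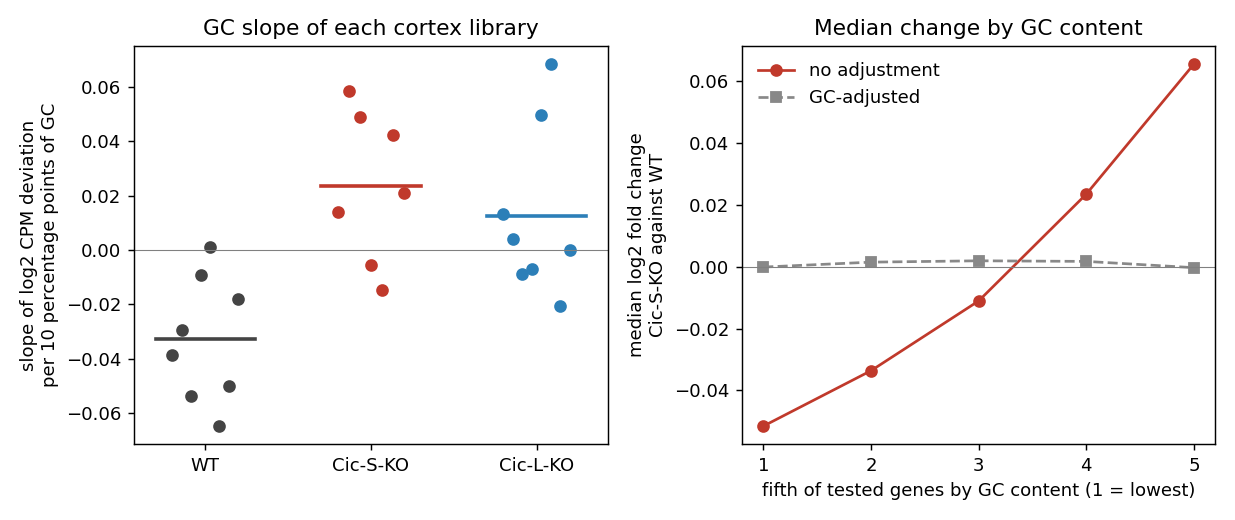
Left, the slope of log2 CPM deviation on GC content (vertical axis, log2 units per 10 percentage points) for each cortex library (points) with the group mean (bar); WT libraries lie between -0.0648 and 0.00108 and Cic-S-KO libraries between -0.0147 and 0.0584. Right, the median log2 fold change of Cic-S-KO against WT (vertical axis) in 5 equal groups of the tested genes ordered by GC content (horizontal axis), which climbs from -0.05 to 0.07 without adjustment (circles) and stays near 0 after it (squares).

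Of 16974 genes tested with edgeR's quasi-likelihood test, 1108 passed a Benjamini-Hochberg adjusted p under 0.05 (6.53%). They were 480 genes higher (2.83%) and 628 lower (3.7%) in Cic-S-KO. Most changes were small, with a median absolute log2 fold change of 0.21 and 43 genes past a 2-fold difference. The group of highest GC content held 286 of the higher and 18 of the lower genes, and the group of lowest GC content held 27 and 246. After GC adjustment 449 genes passed (2.65%), 196 of them higher (1.15%) and 253 lower (1.49%). With and without adjustment, 387 genes passed and kept their direction (2.28%). They were 182 higher (1.07%) and 205 lower (1.21%), with a median absolute log2 fold change of 0.28. Higher and lower genes of this set still differed in GC content, with medians of 53.3% and 48.2%. For 152 genes the CPM of the groups did not overlap (0.895%), and 93 of these were among the 387.

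The size of these sets depended on single libraries. The 1108 became 461 without Cic-S-KO replicate 6, 655 without Cic-S-KO replicate 7, and 675, 634, 683 and 692 without WT replicates 1, 3, 6 and 8. The 387 became 173 without Cic-S-KO replicate 6, 208 without Cic-S-KO replicate 7, 200 without WT replicate 3, 232 without WT replicate 6 and 222 without WT replicate 8, and rose to 697 without Cic-S-KO replicate 1 and 628 without WT replicate 2. With the summed striatal markers as a covariate, which was chosen after seeing the data, 506 genes passed and 189 passed with and without GC adjustment. With this covariate the calls of Irgq, Tspan2, Myrf, Nkx2-2, C1ql1, Cntn1, Nrcam, Epb41l3, Cort, Vip, Lamp5, Gabra2, Grin2d, Gfra2, Bdnf, Hsph1, Hsp90b1, Rpl37 and Gjb6 were lost (edgeR adjusted p from 0.0537 to 0.183), and those of further genes are given beside them. With the covariate and GC adjustment together, some calls that passed under each alone were lost too. They included Gal3st1, Fa2h, Hspa8, Dnaja1, Grin2a, Plxnb2, Plxna3, Pcsk4, Rpl36a, Uqcrh, Zfp180 and H2-D1 (edgeR adjusted p from 0.0611 to 0.118). The individual genes below are therefore given with their values in the samples.

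Cic itself (ENSMUSG00000005442.13, chromosome 7, 25267704 to 25294159 in GRCm38, plus strand) was higher in both knockouts. Whole-gene counts do not tell the isoforms apart and show no loss of the targeted one, so they do not check the genotype labels. Cic read 150.3 to 173 CPM (median 161) in WT, 237 to 260.5 CPM (median 250.3) in Cic-S-KO and 269 to 318 CPM (median 304) in Cic-L-KO, and the groups did not overlap. The log2 fold change of Cic-S-KO against WT was 0.63 ± 0.04 (SE; edgeR adjusted p = 1.35e-12), and 0.54 after GC adjustment. Atxn1, the partner mutated in spinocerebellar ataxia type 1, was lower, at 87.1 to 105 CPM (median 96.5) in WT and 77.5 to 88.3 CPM (median 80.2) in Cic-S-KO (log2 fold change -0.23 ± 0.05, edgeR adjusted p = 0.00335), with 6 of 7 samples below every WT sample. Atxn1 overlaps Gmpr on the opposite strand, and whether counting used strand is not given in the sources used here, so its value is uncertain to that extent. Atxn1l, the related partner, had a log2 fold change of -0.01 ± 0.04 and did not pass. Of the 7 tested genes of the Capicua complex, Cic and Atxn1 were the only ones to pass, and the corepressor genes Hdac2 and Sin3a had log2 fold changes of -0.08 and 0.02.

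**Figure D2:**
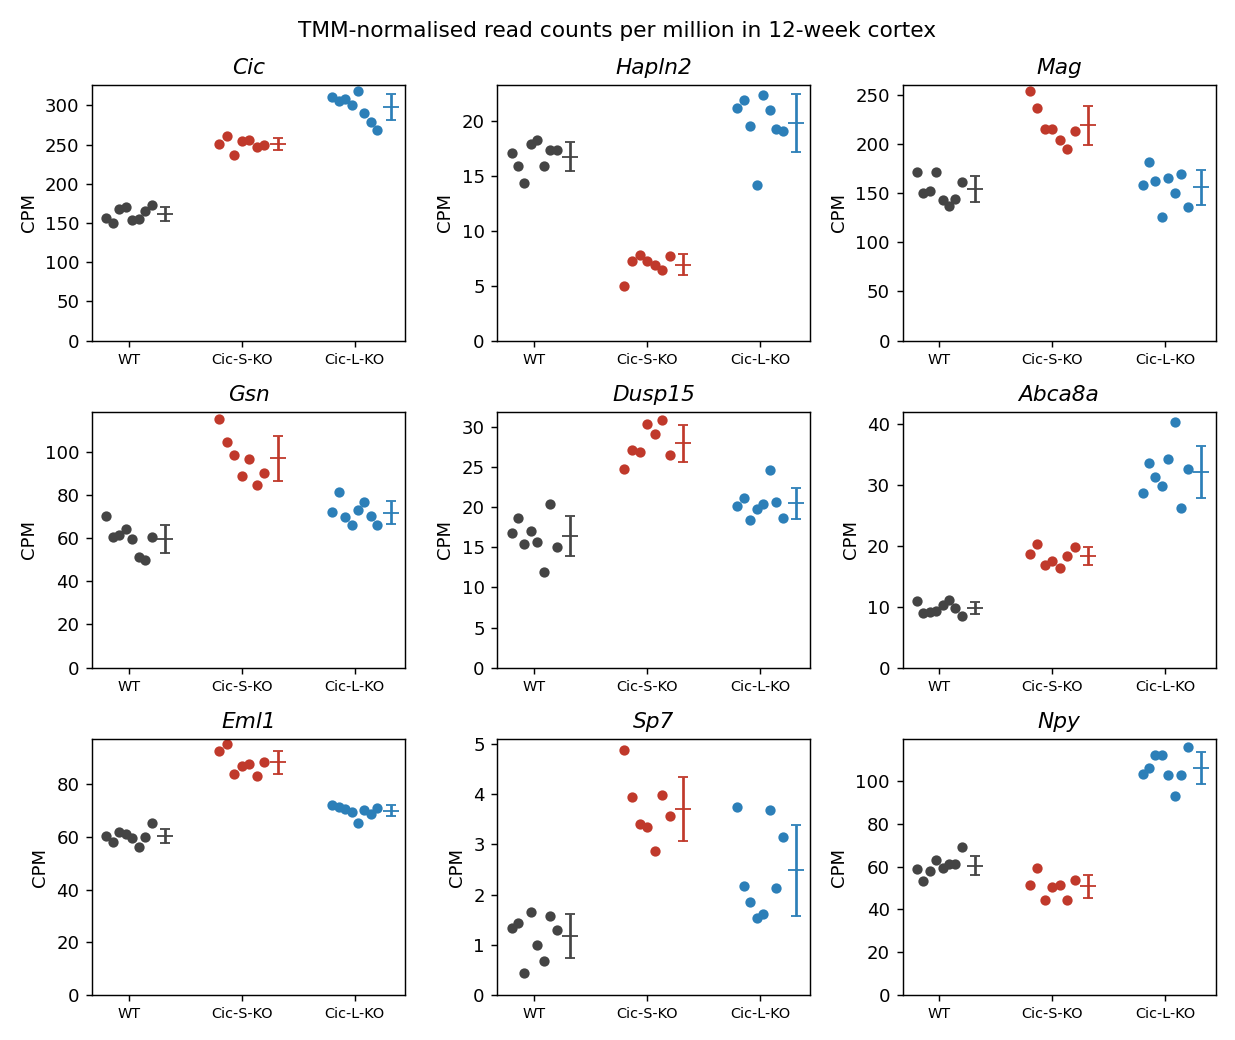
CPM (vertical axes, starting at 0) of 9 genes in each cortex library of WT, Cic-S-KO and Cic-L-KO (points), with the group mean and SD beside them (tick with whiskers). The Cic-S-KO samples of Hapln2 sit between 4.99 and 7.80 CPM, below all WT samples, while those of Mag, Gsn, Dusp15, Abca8a, Eml1 and Sp7 sit above all WT samples.

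Genes of the myelin sheath that passed were all higher in Cic-S-KO. Of 22 tested myelin sheath genes, 8 were higher and 0 lower (against 2.83% and 3.7% of all genes), and 7 of the 8 also passed after GC adjustment. Their median log2 fold change was 0.23, and 18 of 22 were above 0, while the median over all tested genes was -0.00087. In bulk tissue more oligodendrocytes and more RNA per oligodendrocyte cannot be told apart. Gsn, which encodes the actin-severing protein gelsolin, ranged over 49.6 to 70.0 CPM (median 60.3) in WT and 84.5 to 115 CPM (median 96.4) in Cic-S-KO. Mag, a protein of the innermost myelin layer that contacts the axon, ranged over 137 to 172 CPM (median 151) in WT and 194 to 253 CPM (median 215) in Cic-S-KO. For both genes every Cic-S-KO sample was above every WT sample.

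The log2 fold change was 0.70 ± 0.07 for Gsn (edgeR adjusted p = 2.46e-07) and 0.51 ± 0.07 for Mag (edgeR adjusted p = 9.45e-05). Gal3st1 rose by 0.37 ± 0.07 and was above the WT range in 6 of 7 samples. Mog rose by 0.38 ± 0.09, Fa2h, which hydroxylates myelin lipids, by 0.30 ± 0.08, and the tetraspanin Tspan2 by 0.26 ± 0.08 on the log2 scale. These 3 and Myrf, the transcription factor that drives myelination and passed without GC adjustment only (log2 fold change 0.19 ± 0.06), were named after their values were seen. Mbp, which encodes myelin basic protein, did not pass: it ranged over 2104 to 2919 CPM (median 2373) in WT and 2331 to 3531 CPM (median 2741) in Cic-S-KO, and the groups overlapped. Calls lost when 1 library was left out were those of Tspan2 (without Cic-S-KO replicates 1, 2 and 7 and WT replicates 3, 5, 6 and 7, adjusted p from 0.0528 to 0.0762) and Myrf (without Cic-S-KO replicates 1, 2, 3, 5 and 7 and WT replicates 2, 3, 5, 6 and 7, adjusted p from 0.0572 to 0.0919).

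Outside the list, 3 genes known from myelinating cells, which were picked for their own values or promoter and form no list, were higher. Dusp15, a phosphatase of the oligodendrocyte lineage, was 12.0 to 20.3 CPM (median 16.2) in WT and 24.7 to 30.9 CPM (median 27.1) in Cic-S-KO, with no overlap (log2 fold change 0.77 ± 0.08, edgeR adjusted p = 1.83e-07). Gjc3, named for its promoter, had a mean of 57.1 ± 7.17 CPM in WT and 78.2 ± 6.85 CPM in Cic-S-KO (SD, n = 8 and 7; log2 fold change 0.46 ± 0.07, edgeR adjusted p = 0.000557). Plxnb3, the plexin receptor for SEMA5A that is enriched in oligodendrocytes, was 17.3 to 25.3 CPM (median 20.7) in WT and 27.4 to 30.2 CPM (median 28.3) in Cic-S-KO, again without overlap (log2 fold change 0.47 ± 0.07, edgeR adjusted p = 0.000178).

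Genes of oligodendrocyte precursors and newly forming oligodendrocytes had a median nearer 0. Of 17 tested, 4 were higher and 0 lower (against 2.83% and 3.7% of all genes), and 1 also passed after GC adjustment (1.07% of all genes). The median log2 fold change was 0.07. That gene was Enpp6, a marker of newly forming oligodendrocytes (log2 fold change 0.38 ± 0.11). The lineage transcription factors Sox10 and Nkx2-2 and the secreted protein C1ql1 had log2 fold changes of 0.27, 0.44 and 0.34 and did not pass after it. Nkx2-2 and C1ql1 overlap genes on the opposite strand. Pdgfra and Cspg4, which mark precursors, and are named after their values were seen, had log2 fold changes of -0.12 and -0.01 and did not pass. The 4 higher became 1 without Cic-S-KO replicates 2 and 7 and 2 without Cic-S-KO replicates 3 and 6 and WT replicates 1, 5, 6 and 8. The call of Enpp6 (without Cic-S-KO replicates 2, 3 and 7 and WT replicates 5 and 6, adjusted p from 0.0511 to 0.0605) was lost, as were those of Nkx2-2 (without Cic-S-KO replicates 2, 6 and 7 and WT replicates 1, 3, 5 and 8, adjusted p from 0.0513 to 0.108) and C1ql1 (without Cic-S-KO replicates 2, 3, 6 and 7 and WT replicates 1, 2, 6 and 8, adjusted p from 0.0501 to 0.0985). With the striatal covariate Sox10 still passed (edgeR adjusted p = 0.0192) and Enpp6 did not (edgeR adjusted p = 0.0818). The plot of oligodendrocyte genes shows the contrast between the sheath list, which lies mostly above 0, and the precursor list, which straddles it.

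**Figure D3:**
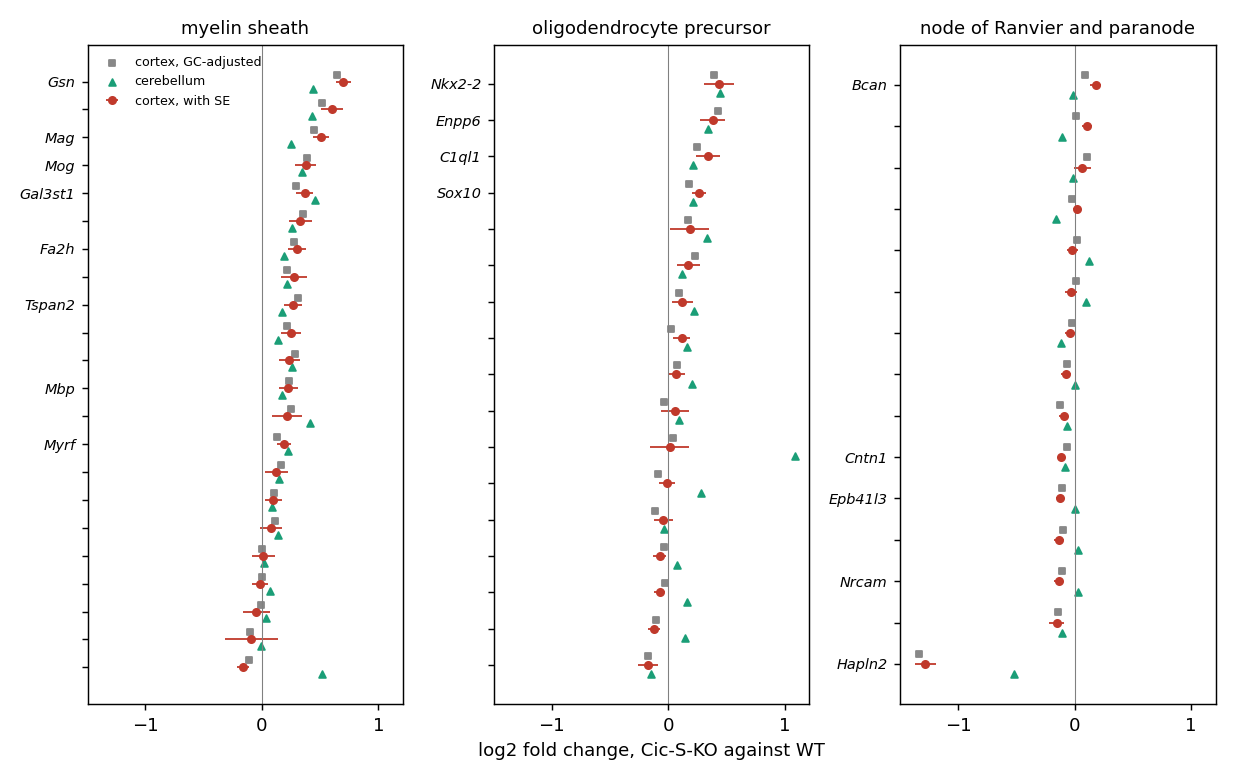
Log2 fold change of Cic-S-KO against WT (horizontal axis) for each tested gene of 3 lists (rows, some of them named): cortex with its standard error (red circles and lines), cortex after GC adjustment (grey squares) and cerebellum (green triangles). Of the 22 sheath genes 18 lie above 0 in cortex, and Hapln2 stands alone at -1.28 among genes of the node and paranode.

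The summed level of the striatal markers had a median of 784 CPM in Cic-S-KO and 399 CPM in WT, with overlap, and the myelin counts were repeated with the summed striatal markers as a covariate. With it, 6 of the 22 sheath genes were higher and 0 lower, with a median log2 fold change of 0.26, and 4 were higher when GC adjustment was added. The log2 fold change of Mag was then 0.54 (edgeR adjusted p = 0.000157) and that of Gsn 0.72 (edgeR adjusted p = 1.84e-06). Leaving out each library in turn gave 6 to 10 higher sheath genes and 0 or 1 lower. The 1 lower appeared without Cic-S-KO replicate 1 or 4. Mag lies 5.63 Mb from Cic on chromosome 7.

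Hapln2, encoding the brain link protein BRAL1, had the smallest p of all genes that fell. It read 14.4 to 18.2 CPM (median 17.2) in WT, 4.99 to 7.80 CPM (median 7.22) in Cic-S-KO and 14.1 to 22.4 CPM (median 20.3) in Cic-L-KO. Every Cic-S-KO sample was below every WT sample. The log2 fold change was -1.28 ± 0.09 (edgeR adjusted p = 3.29e-11), -1.34 after GC adjustment and -1.29 with striatal markers as a covariate. The direct contrast of Cic-S-KO with Cic-L-KO gave -1.52 ± 0.09 (edgeR adjusted p = 2.25e-14). Next to it on chromosome 3, the gene Gm19439, annotated with no assigned function (88030878 to 88033150, plus strand; Hapln2 spans 88021750 to 88027583, minus strand), fell as well. Gm19439 was 4.04 to 9.92 CPM (median 6.09) in WT and 1.49 to 3.02 CPM (median 1.88) in Cic-S-KO, with no overlap (log2 fold change -1.67 ± 0.18, edgeR adjusted p = 3.41e-07), and was named after its values were seen. Bcan, a matrix proteoglycan whose gene also lies nearby on the minus strand, had a log2 fold change of 0.18 ± 0.05 that did not pass after GC adjustment.

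Besides Hapln2, the changes that passed in the node of Ranvier and paranode list were small. Of 15 tested, 1 was higher (Bcan) and 4 lower (against 2.83% and 3.7% of all genes), and Hapln2 was the 1 gene to pass after GC adjustment. The adhesion molecules Cntn1 and Nrcam and the membrane scaffold Epb41l3 had log2 fold changes of -0.11, -0.14 and -0.13, which passed without GC adjustment only. With 1 library left out, the 4 lower became 1 without Cic-S-KO replicate 6 and WT replicates 1 and 8 and 2 without WT replicate 3, and the 1 higher 2 without Cic-S-KO replicate 1. Calls that were lost were those of Cntn1 (without Cic-S-KO replicate 6 and WT replicates 1 and 8, adjusted p from 0.0526 to 0.0666), Nrcam (without Cic-S-KO replicates 2, 3, 6 and 7 and WT replicates 1, 3, 5, 6, 7 and 8, adjusted p from 0.0547 to 0.128) and Epb41l3 (without Cic-S-KO replicate 6 and WT replicates 1, 3 and 8, adjusted p from 0.0536 to 0.072).

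Among protein-coding genes whose mean log2 CPM was 1 or more and that passed with and without GC adjustment (331 genes, 142 higher and 189 lower), the strongest rises included genes of several tissues. Ngfr, the p75 neurotrophin receptor, had the highest log2 fold change, 1.71 ± 0.44, but its groups overlapped (0.776 to 4.02 CPM (median 1.62) in WT and 1.57 to 9.49 CPM (median 4.36) in Cic-S-KO). Sp7, which encodes Osterix, the transcription factor of bone-forming cells, was next. It was at most 1.65 CPM in WT and 2.87 to 4.87 CPM (median 3.56) in Cic-S-KO, and the groups did not overlap (log2 fold change 1.67 ± 0.23, edgeR adjusted p = 4.94e-05). All its WT values lay below the minimum of this set, a log2 CPM of 1. Sp7 therefore entered the set only through the knockout samples, which favours a large rise. Adamtsl4, a matrix protein of the ADAMTS-like family, was 4.80 to 8.62 CPM (median 7.15) in WT and 12.3 to 15.5 CPM (median 13.6) in Cic-S-KO, without overlap (log2 fold change 0.96 ± 0.11). Abca8a, a lipid transporter of the ABC family, was 8.44 to 11.1 CPM (median 9.54) in WT, 16.3 to 20.3 CPM (median 18.4) in Cic-S-KO and 26.2 to 40.3 CPM (median 31.9) in Cic-L-KO, so all 3 groups were apart. Its log2 fold change was 0.91 ± 0.08 (edgeR adjusted p = 4.07e-09). Of the 5 tested transporters of its subfamily, Abca8a alone was higher, and Abca5 was lower without GC adjustment only (-0.19). Of these genes, the call of Ngfr (without Cic-S-KO replicates 2 and 6 and WT replicates 3 and 6, adjusted p from 0.0511 to 0.071) was lost, and with the striatal covariate its log2 fold change was 1.23 (edgeR adjusted p = 0.112).

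Eml1, a microtubule-associated protein whose loss disturbs cortical development, had the smallest p of the higher genes after Cic. It was 56.1 to 65.3 CPM (median 60.1) in WT, 83.3 to 95.2 CPM (median 87.7) in Cic-S-KO and 65.5 to 72.3 CPM (median 70.4) in Cic-L-KO (log2 fold change of Cic-S-KO against WT 0.55 ± 0.04, edgeR adjusted p = 3.52e-12). Every Cic-S-KO sample was above every sample of the other genotypes. The remaining genes with the highest fold changes were Prima1, which anchors acetylcholinesterase in the membrane (0.94), the exocytosis protein Otof (0.84), the ephrin receptor Epha8 (0.81), Ankub1 (0.79), the EGF-repeat gene Megf6 (0.78), the cytochrome P450 Cyp2j12 (0.77) and the proprotein convertase Pcsk4 (0.71, all log2 fold changes). Ankub1 and Megf6 were without overlap between the groups, and the others overlapped. The call of Prima1 (without Cic-S-KO replicate 6, adjusted p = 0.0624) was lost, and with the striatal covariate those of Prima1 and Epha8 were lost (edgeR adjusted p = 0.0703 and 0.0554).

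Hapln2 and several genes of low abundance had the lowest fold changes. Gm765, a predicted protein-coding gene, was 4.17 to 8.96 CPM (median 6.26) in WT and 1.13 to 3.85 CPM (median 2.65) in Cic-S-KO (log2 fold change -1.47 ± 0.25, edgeR adjusted p = 0.00158) and 1.27 to 4.58 CPM (median 2.21) in Cic-L-KO. Scrg1, a gene first found as raised in scrapie, was 14.1 to 19.0 CPM (median 16.0) in WT and 9.96 to 12.7 CPM (median 10.8) in Cic-S-KO, without overlap (log2 fold change -0.52 ± 0.08, edgeR adjusted p = 0.000177). The coagulation inhibitor Serpind1 (-0.71) did not overlap between groups either, though it lies across Pi4ka on the opposite strand. Log2 fold changes were -0.77 for the cytochrome P450 Cyp1b1, -0.61 for the Notch coactivator Maml3, -0.53 for the O-glycosylation enzyme Galnt9, -0.52 for the apoptosis gene Pmaip1, -0.48 for the endotoxin receptor Cd14 and -0.46 for the peptide receptor Glp2r, all with overlapping groups. Glp2r overlaps genes on the opposite strand. Calls lost when 1 library was left out were those of Maml3 (without Cic-S-KO replicate 6, adjusted p = 0.0664), Galnt9 (without Cic-S-KO replicates 2, 3, 6 and 7 and WT replicates 3, 6 and 8, adjusted p from 0.0504 to 0.0725), Cd14 (without Cic-S-KO replicates 3, 5 and 6 and WT replicates 1, 3, 4, 6 and 8, adjusted p from 0.0503 to 0.101) and Glp2r (without Cic-S-KO replicates 2, 6 and 7 and WT replicates 1 and 3, adjusted p from 0.0539 to 0.0659). With the striatal covariate these 4 and Pmaip1 did not pass (edgeR adjusted p from 0.0527 for Galnt9 to 0.0935 for Cd14).

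Besides Hapln2 and Scrg1, the lower genes of this set with the smallest p changed by small amounts. Deptor, an inhibitor of the growth kinase mTOR, was 48.9 to 57.6 CPM (median 51.3) in WT and 36.9 to 45.5 CPM (median 40.3) in Cic-S-KO (log2 fold change -0.36 ± 0.05, edgeR adjusted p = 6.62e-05). Stxbp6, a SNARE-binding protein of exocytosis, had a log2 fold change of -0.30 ± 0.04, and Dpy19l3, a C-mannosyltransferase, one of -0.26 ± 0.04. In all 3 the groups did not overlap. Snap25, a SNARE protein of synaptic vesicle release, was 2658 to 3140.4 CPM (median 2839) in WT and 2163 to 2475 CPM (median 2430.2) in Cic-S-KO, and Pak1, a kinase of the actin cytoskeleton, was 576 to 690.3 CPM (median 619) and 481 to 570.2 CPM (median 545). Both were lower without overlap, with log2 fold changes of -0.26 ± 0.04 and -0.26 ± 0.05 (edgeR adjusted p = 0.000848 and 0.00224).

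Cortical interneurons are known by the neuropeptides they release. Of 16 tested interneuron genes, 0 were higher and 3 lower (against 2.83% and 3.7% of all genes), and the 2 that also passed after GC adjustment (1.21% of all genes) were Npy and Cort. Npy, encoding neuropeptide Y, was 53.3 to 69.1 CPM (median 60.2) in WT, 44.5 to 59.4 CPM (median 51.3) in Cic-S-KO and 93.1 to 116 CPM (median 105) in Cic-L-KO, so the knockouts lay on opposite sides of WT. Its log2 fold change against WT was -0.25 ± 0.06 (edgeR adjusted p = 0.00872), with 5 of 7 samples below the WT range. Cort, the somatostatin relative cortistatin, had a log2 fold change of -0.38 ± 0.11, and Vip one of -0.32 ± 0.08 that did not pass after GC adjustment. Pvalb, the calcium buffer of fast-spiking interneurons, had one of -0.29 ± 0.09 and did not pass. Grp, encoding gastrin-releasing peptide, was 6.17 to 10.6 CPM (median 7.76) in WT and 3.73 to 6.30 CPM (median 5.56) in Cic-S-KO (log2 fold change -0.63 ± 0.11, edgeR adjusted p = 0.000659), with 6 of 7 samples below the WT range. Crhbp, which binds corticotropin-releasing hormone, had a log2 fold change of -0.24 ± 0.05 (edgeR adjusted p = 0.00501). The median over the interneuron list was -0.08, against -0.00087 for all genes, and 6 of the 16 were above 0. Without Cic-S-KO replicate 6 the 3 lower became 1, and without Cic-S-KO replicate 4 there was 1 higher. Calls lost when 1 library was left out were those of Cort (without Cic-S-KO replicates 3, 5, 6 and 7 and WT replicates 4, 5, 6, 7 and 8, adjusted p from 0.0506 to 0.114) and Vip (without Cic-S-KO replicate 6, adjusted p = 0.0574).

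Markers of cortical layers passed in both directions. Of 10 upper-layer genes, 1 was higher (Otof) and 1 lower (Lamp5), against 2.83% and 3.7% of all genes. Of 12 deep-layer genes, Foxp2 and Ntsr1 were higher and Parm1 lower. Otof and Foxp2 passed after GC adjustment. Otof was 17.9 to 39.6 CPM (median 24.9) in WT and 30.2 to 64.8 CPM (median 50.4) in Cic-S-KO, and Foxp2, a transcription factor of corticothalamic neurons, was 14.8 to 21.3 CPM (median 18.6) and 16.8 to 28.9 CPM (median 24.3), with overlap in both. Foxp2 is also expressed in striatal neurons; with the striatal covariate its log2 fold change was 0.25 (edgeR adjusted p = 0.06) and that of Otof 0.60 (edgeR adjusted p = 0.0169). Calls lost when 1 library was left out were those of Lamp5 (without Cic-S-KO replicates 2, 3, 5, 6 and 7 and WT replicates 1, 3, 5, 6 and 8, adjusted p from 0.0528 to 0.0944) and Parm1 (without Cic-S-KO replicate 2 and WT replicates 1 and 3, adjusted p from 0.056 to 0.0584).

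Of 15 GABA-A receptor subunits, which form the main inhibitory chloride channels, 0 were higher and 3 lower with and without GC adjustment (1.21% of all genes were lower so). Gabra2, the alpha 2 subunit, had a log2 fold change of -0.24 ± 0.06. Gabrr2, the rho 2 subunit, was near the detection limit, at 0.303 to 0.924 CPM in WT and 0 to 0.248 CPM in Cic-S-KO (log2 fold change -2.29 ± 0.38). Of 17 ionotropic glutamate receptor subunits, 2 were higher and 1 lower; Grin2a, an NMDA receptor subunit, passed after GC adjustment (-0.27 ± 0.06), and Grik5 (0.19) and Grin2d (0.29) did not. Of 70 potassium channel genes, 1 was higher and 5 lower, and 2 of the lower passed after GC adjustment, against 2.83%, 3.7% and 1.21% of all genes. Kcnj16, an inward rectifier of glia, had the smallest p (-0.34 ± 0.06, edgeR adjusted p = 0.00212). With 1 library left out, the 5 lower potassium channel genes became 1 without Cic-S-KO replicate 6 and WT replicates 3 and 8, 2 without Cic-S-KO replicate 3 and WT replicate 6, 3 without Cic-S-KO replicates 2 and 7 and WT replicates 1, 5 and 7 and 10 without Cic-S-KO replicate 4, and the 1 higher became 0 without Cic-S-KO replicates 6 and 7 and WT replicates 1 and 6, 2 without Cic-S-KO replicates 3, 4 and 5 and WT replicates 3 and 5, 3 without WT replicates 2 and 4 and 5 without Cic-S-KO replicate 1. The 3 lower GABA-A subunits became 5 without Cic-S-KO replicate 1 and WT replicate 4, with 1 higher without Cic-S-KO replicate 4. The call of Grin2d (without Cic-S-KO replicates 2, 3 and 6 and WT replicates 1 and 3, adjusted p from 0.0514 to 0.0878) was lost.

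Of 12 tested neurotrophins and their receptors, 1 was higher (Ngfr) and 3 were lower (against 2.83% and 3.7% of all genes). Ntrk2, encoding the BDNF receptor TrkB, was 822 to 974 CPM (median 937) in WT and 749.6 to 873 CPM (median 815) in Cic-S-KO (log2 fold change -0.19 ± 0.04, edgeR adjusted p = 0.00397), with 5 of 7 samples below the WT range. Gfra2, a receptor for neurturin, passed as well (-0.27 ± 0.08), while Bdnf (-0.41 ± 0.12) passed without GC adjustment only. With 1 library left out, the 1 higher became 0 without Cic-S-KO replicates 2 and 6 and WT replicates 3 and 6 and 2 without WT replicates 2 and 4, and the 3 lower became 1 without Cic-S-KO replicates 2, 3, 6 and 7 and WT replicates 1, 3 and 8. The lost calls were that of Ngfr, described above, and those of Gfra2 (without Cic-S-KO replicates 2, 3, 6 and 7 and WT replicates 1, 3, 4 and 8, adjusted p from 0.056 to 0.0849) and Bdnf (without Cic-S-KO replicates 2, 3, 6 and 7 and WT replicates 1, 3, 5, 6, 7 and 8, adjusted p from 0.0558 to 0.109).

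Chaperones of the heat shock response fold other proteins. Of 17 tested, 0 were higher and 5 lower (against 2.83% and 3.7% of all genes), 3 of them also after GC adjustment (1.21% of all genes), and the list median was -0.19 against -0.00087 for all genes. Hsp90aa1, the inducible HSP90, was 1234 to 1444 CPM (median 1343) in WT and 1028 to 1221 CPM (median 1137) in Cic-S-KO, without overlap (log2 fold change -0.22 ± 0.04, edgeR adjusted p = 0.00117). Hspa8, the constitutive HSC70, had a log2 fold change of -0.25 ± 0.05 and its co-chaperone Dnaja1 one of -0.18 ± 0.04. Hsph1 (-0.25) and Hsp90b1 (-0.16, named after its values were seen) passed without GC adjustment only. With the striatal covariate, 3 were lower and the median was -0.10. When GC adjustment was added to it, Hsp90aa1 still passed (edgeR adjusted p = 0.0282), and Hspa8 and Dnaja1 did not (edgeR adjusted p = 0.0627 and 0.117). The 5 lower became 3 without Cic-S-KO replicates 2, 6 and 7 and WT replicates 3 and 6. Calls lost when 1 library was left out were those of Hsph1 (without Cic-S-KO replicates 2, 6 and 7 and WT replicates 3 and 6, adjusted p from 0.0553 to 0.0778) and Hsp90b1 (without Cic-S-KO replicates 2, 3, 6 and 7 and WT replicates 1, 3, 5, 6 and 8, adjusted p from 0.0545 to 0.104).

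Most ribosomal protein genes and nuclear genes of oxidative phosphorylation had log2 fold changes slightly below 0. Of 74 ribosomal protein genes, 0 were higher and 6 lower; with GC adjustment 10 were lower, 4 of which also passed without it (3.7%, 1.49% and 1.21% of all genes). The list had a median log2 fold change of -0.10 and 8 genes above 0. Of 74 oxidative phosphorylation genes, 1 was higher and 10 lower, and with GC adjustment 0 were higher and 5 lower, 2 of which also passed without it, with a median of -0.07 and 10 above 0. Rpl36a (-0.22), Rpl37 (-0.17) and Uqcrh, a complex III subunit (-0.19), passed with and without GC adjustment, and their groups overlapped. Of 13 mitochondrially encoded genes 0 passed, and all 13 had a log2 fold change below 0 (median -0.08). Ribosomal protein genes have near-identical pseudogene copies, so their counts are uncertain. These counts depended on single libraries: the 6 lower ribosomal genes became 1 without Cic-S-KO replicates 6 and 7 and WT replicates 1, 3 and 6, 2 without Cic-S-KO replicates 4 and 5 and WT replicates 5 and 8, 3 without Cic-S-KO replicate 3 and WT replicate 4, 10 without Cic-S-KO replicate 1, 16 without WT replicate 7 and 18 without Cic-S-KO replicate 2. The 10 lower oxidative phosphorylation genes became 2 without Cic-S-KO replicate 6 and WT replicates 1 and 3, 4 without Cic-S-KO replicates 4 and 5 and WT replicate 6, 5 without WT replicate 8 and 6 without Cic-S-KO replicate 7, and the 1 higher became 0 without Cic-S-KO replicates 2, 6 and 7 and WT replicates 1, 2, 3, 5 and 6 and 2 without Cic-S-KO replicate 4. The call of Rpl37 (without Cic-S-KO replicates 6 and 7 and WT replicates 1, 3, 6 and 8, adjusted p from 0.0519 to 0.0649) was lost.

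Collagens build fibrous and basement membrane matrix. Of 36 tested, 7 were higher and 0 lower (against 2.83% and 3.7% of all genes), and 3 also passed after GC adjustment (1.07% of all genes). In all, 28 of 36 were above 0 and the median log2 fold change was 0.20. The list had a median GC content of 56.5%, against 49.5% for all tested genes. Col2a1, the cartilage collagen, was 0.517 to 1.65 CPM (median 0.876) in WT and 1.48 to 2.50 CPM (median 2.11) in Cic-S-KO (log2 fold change 1.14 ± 0.19, edgeR adjusted p = 0.000551). Col5a3 was 0.888 to 1.43 CPM (median 1.04) in WT and 1.64 to 3.35 CPM (median 2.27) in Cic-S-KO, without overlap (log2 fold change 1.05 ± 0.16, edgeR adjusted p = 0.000131). Col11a2 had a log2 fold change of 0.42 ± 0.09. Of 12 tested genes of skeletal differentiation and matrix, Sp7 and Col2a1 were higher and Dmp1, a phosphoprotein of bone and dentin, was lower (8.28 to 13.3 CPM (median 10.9) in WT and 5.87 to 9.90 CPM (median 6.74) in Cic-S-KO; log2 fold change -0.59 ± 0.11). Markers of meningeal fibroblasts, which make collagen around the brain, were all at or below 0 (9 tested, 0 passing, median -0.30). That list shares Col1a1 and Col1a2 with the collagens, and the source of the collagen counts was not tested. With 1 library left out, the 7 higher collagens became 3 without Cic-S-KO replicates 5 and 6 and WT replicate 1 and 4 without Cic-S-KO replicate 4 and WT replicates 3 and 8.

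Of 27 semaphorins and plexins, ligands and receptors that guide axons, 7 were higher and 1 lower (against 2.83% and 3.7% of all genes), and 4 were higher with and without GC adjustment (1.07% of all genes). Besides Plxnb3 these included Plxnb2, at 63.3 to 72.7 CPM (median 70.1) in WT and 76.1 to 84.4 CPM (median 81.9) in Cic-S-KO without overlap (log2 fold change 0.23 ± 0.05), and Plxna3 (0.31 ± 0.08). The list had a median GC content of 56.5%, and its median log2 fold change went from 0.07 to 0.01 after GC adjustment. The 7 higher became 3 without Cic-S-KO replicate 6, the 1 lower became 0 without Cic-S-KO replicates 3, 4, 5, 6 and 7 and WT replicates 1, 3, 4, 6 and 8, and the call of Plxna3 (without Cic-S-KO replicate 6, adjusted p = 0.0505) was lost.

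Few markers of other cell types of the cortex passed. Among all genes 6.53% passed, and these lists are too short to tell their counts from that share. Of 15 astrocyte genes 1 was lower, the connexin gene Gjb6 (61.6 to 98.3 CPM (median 72.9) in WT and 49.0 to 66.0 CPM (median 53.7) in Cic-S-KO, log2 fold change -0.40 ± 0.10). Of 16 microglial genes 0 passed, with log2 fold changes from -0.21 to 0.18. Of 13 endothelial genes 1 was lower without GC adjustment only, the angiopoietin receptor Tek (-0.29), and of 8 pericyte and smooth muscle genes 0 passed. With 1 library left out, the 1 lower astrocyte gene became 0 without Cic-S-KO replicates 6 and 7 and 2 without Cic-S-KO replicate 1, with 1 higher without WT replicate 4. Calls lost were those of Gjb6 (without Cic-S-KO replicates 6 and 7, adjusted p from 0.0503 to 0.0624) and Tek (without Cic-S-KO replicates 5 and 7 and WT replicate 3, adjusted p from 0.0505 to 0.0547). The plot of gene lists sets these beside the lists described above.

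**Figure D4:**
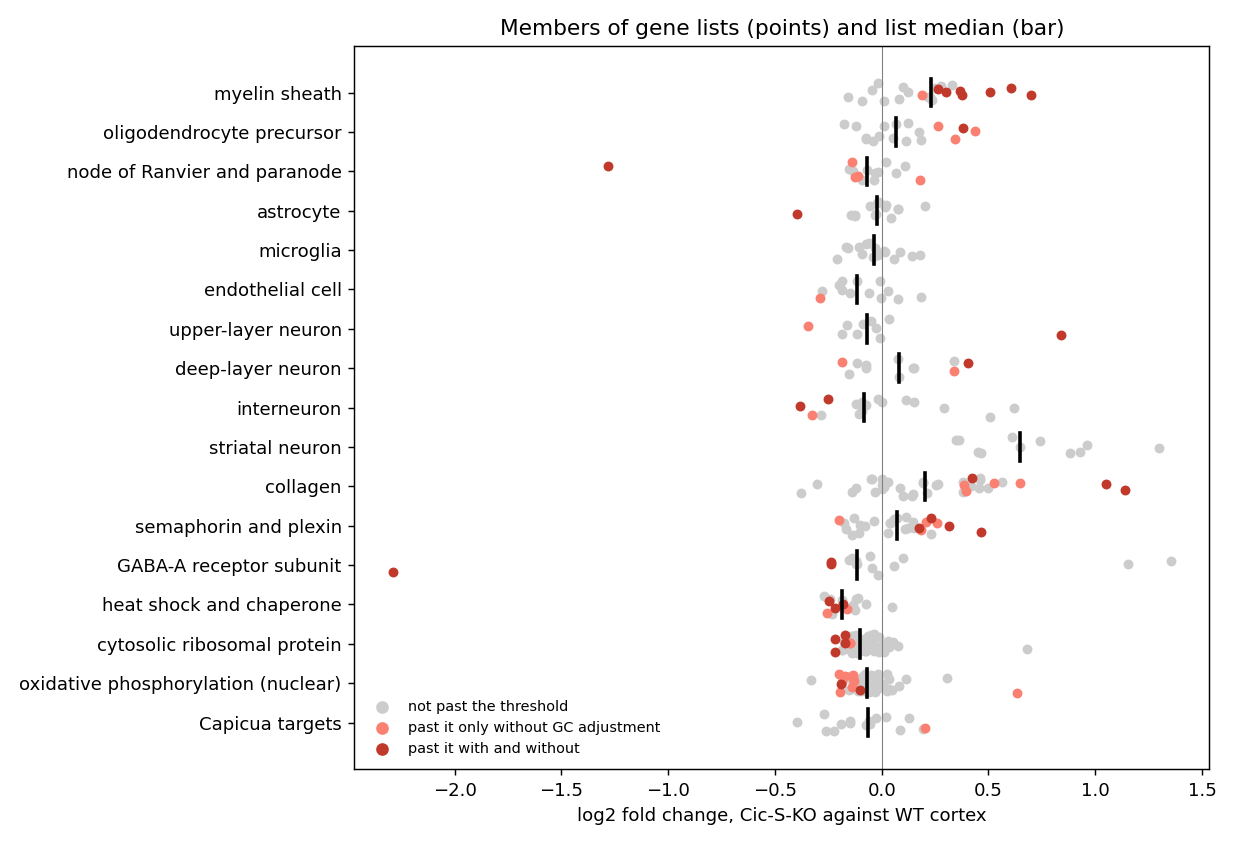
Log2 fold change of Cic-S-KO against WT cortex (horizontal axis) for each tested member (point) of 17 gene lists (vertical axis), with the list median (black bar). Red points passed with and without GC adjustment, salmon points without it only and grey points did not pass; the myelin sheath list has 7 red points above 0 and the heat shock list 3 below it, while the striatal list lies to the right with no member that passed.

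Of 16 genes known as Capicua targets, 1 was higher and 0 lower, and 0 passed after GC adjustment. Of all genes 2.83% were higher and 3.7% lower, so the count in Cic-S-KO is near the background. Vgf, a secreted neuropeptide precursor, had a log2 fold change of 0.20 ± 0.06. Etv4, an ETS factor and a classical target, was 7.19 to 13.2 CPM (median 10.4) in WT and 11.1 to 13.5 CPM (median 11.4) in Cic-S-KO, with overlap, but 18.7 to 23.8 CPM (median 22.4) in Cic-L-KO. The list median was -0.07. In Cic-L-KO, compared with the same WT samples, 9 were higher and 3 lower (21.4% and 21.9% of all genes, 43.2% in all). The call of Vgf (without Cic-S-KO replicates 2, 3, 4, 5, 6 and 7 and WT replicates 1, 2, 3 and 4, adjusted p from 0.0506 to 0.0895) was lost. Cic-S-KO was lower than Cic-L-KO in 11 of the 16 and higher in 1 (of all tested genes this contrast called 33.9%, with 16.5% lower and 17.4% higher).

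Both knockouts were compared with the same WT samples, so their fold changes against WT are not independent, and only the direct contrast tests their difference. For the 387 genes that passed in Cic-S-KO with and without GC adjustment, Cic-S-KO differed from Cic-L-KO in 224 (57.9%, against 33.9% of all genes). These genes were chosen by their values in the same Cic-S-KO samples, so a share above that of all genes follows in part from the choice. Of 22 myelin sheath genes, 14 exceeded their level in Cic-L-KO and 0 were below it (against 17.4% and 16.5% of all genes). The 14 included Mag (0.49 ± 0.07, edgeR adjusted p = 3.87e-06). In Cic-L-KO, 2 of the 22 were higher than in WT and 5 lower (21.4% and 21.9% of all genes). Against Cic-L-KO, Eml1 was higher in Cic-S-KO by 0.34 ± 0.03 on the log2 scale and Abca8a lower, with a log2 difference of -0.81 ± 0.07. Of the 331 protein-coding genes above, the 5 with the smallest p in this contrast all fell in Cic-S-KO and lay above WT in Cic-L-KO. Pacsin2, which bends membranes in endocytosis, was 70.5 to 78.0 CPM (median 73.2) in WT, 60.3 to 66.9 CPM (median 65.4) in Cic-S-KO and 132 to 152 CPM (median 139.5) in Cic-L-KO. Dpy19l3 (-0.99 ± 0.04), the protease inhibitor Serpina3n (-2.09 ± 0.08), Crhbp (-1.23 ± 0.05) and Atxn1 (-1.13 ± 0.05) showed the same pattern. The edgeR adjusted p of Pacsin2 was 3.02e-21, and that of Atxn1 3.22e-18.

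In the cerebellum of the same genotypes, 1370 of 16643 genes passed (8.23%). Of the 387 cortex genes, 76 also passed there in the same direction and 7 in the opposite one, which was 19.6% of the cortex set and 5.55% of the cerebellum set. Abca8a had a log2 fold change of 1.12 ± 0.13 in cerebellum (edgeR adjusted p = 8.82e-06), Eml1 of 0.31 ± 0.05, Sp7 of 1.11 ± 0.21, Gsn of 0.44 ± 0.08, Snap25 of -0.26 ± 0.05 and Pak1 of -0.30 ± 0.04. All 6 were chosen for passing in both tissues. Of the 22 myelin sheath genes, 5 were higher and 0 lower in cerebellum (4.34% and 3.89% of all genes), with a median of 0.20. The labels do not tie cortex and cerebellum samples to the same animals. The 1370 became 883 and 907 without cerebellum Cic-S-KO replicates 6 and 7.

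The difference between tissues was tested as an interaction over 46 brain samples. Of 18032 genes it called 812 (4.5%), 362 with a higher change in cortex (2.01%) and 450 with a lower one (2.5%). Of the 387 cortex genes it called 122. Those genes were chosen by their values in the same cortex samples, so a larger share than among all genes follows in part from that choice. Hapln2 fell in both tissues but more in cortex, with log2 fold changes of -1.28 in cortex and -0.52 in cerebellum (difference -0.76 ± 0.16, edgeR adjusted p = 0.0045). Col5a3 rose in cortex and had a log2 fold change of -0.20 in cerebellum (difference 1.25 ± 0.18, edgeR adjusted p = 9.65e-05). Npy fell in cortex and rose in cerebellum (0.46; difference -0.71 ± 0.14, edgeR adjusted p = 0.00311). Cic had a log2 fold change of 0.15 in cerebellum (difference 0.48 ± 0.06, edgeR adjusted p = 3.23e-05). For Mag, Gal3st1 and Mog the difference did not pass (adjusted p from 0.244 to 0.946). The 812 became 462 without cortex Cic-S-KO replicate 6, 529 without cortex WT replicate 1 and 541 without cerebellum WT replicate 4.

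**Figure D5:**
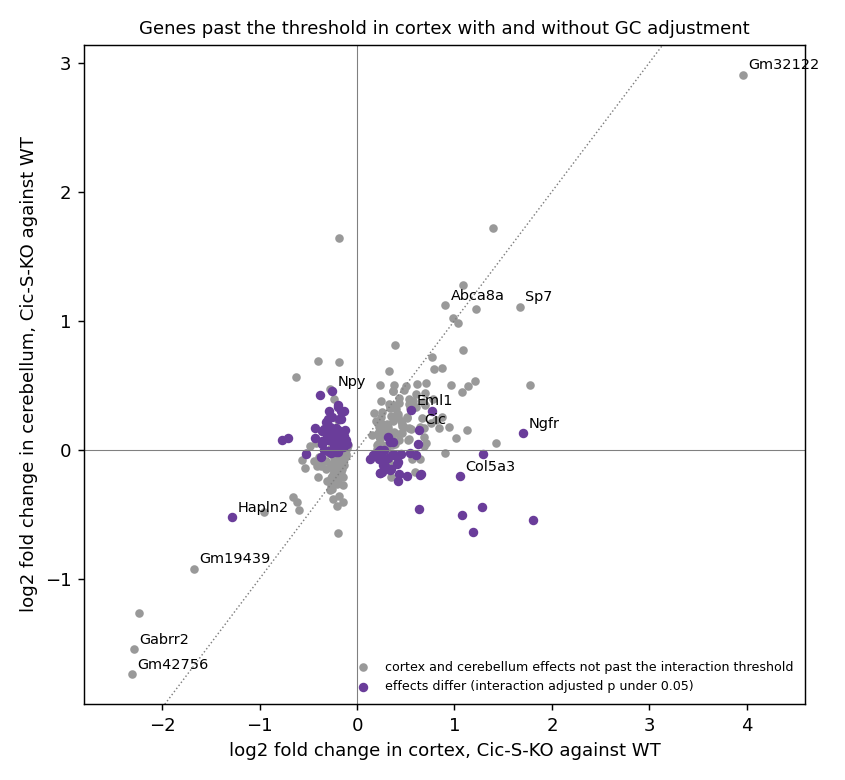
Log2 fold change of Cic-S-KO against WT in cortex (horizontal axis) and cerebellum (vertical axis) for the 378 genes that passed in cortex with and without GC adjustment and were tested in both tissues; the dotted line marks equal effects. Purple points differ between the tissues by the interaction test and grey points do not; Abca8a lies near the line, while Hapln2 is further from 0 in cortex than in cerebellum.

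Genes near Cic on chromosome 7 can be inherited together with its modified allele. Within 10 Mb of Cic, 22 of 311 tested genes passed (7.07%) and 6 passed with and without GC adjustment (1.93%, against 2.28% of all genes), which is near the background. Besides Cic and Mag these were Zfp180 (-0.23), Irgq (-0.11), Tmem91 (0.52) and Ryr1, a calcium release channel (0.63, all log2 fold changes). Tmem91 overlaps Exosc5 on the opposite strand. The call of Irgq (without Cic-S-KO replicates 1, 2, 6 and 7 and WT replicates 1, 2, 3, 5, 6, 7 and 8, adjusted p from 0.0527 to 0.132) was lost.

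Genes that passed without GC adjustment only carried the GC pattern described above. The 3 higher ones with the smallest p were Grik5, the transcription complex gene Ints1 and the glycosyltransferase gene Mgat5b, with GC contents of 61.7%, 61.2% and 61.3%. The 3 lower ones were Serinc1, Slc25a46 and Upf2, with 40.8%, 40.7% and 43.5%. Ints1 went from a log2 fold change of 0.21 to 0.11 after adjustment, and Serinc1 from -0.18 to -0.11. The CPM of Grik5, Ints1 and Mgat5b did not overlap between the groups although the calls were lost.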

How the data were processed

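RNA was extracted with a miRNeasy kit from flash-frozen tissue and libraries were made from polyA-selected RNA, per the labels' protocols. The authors deposited raw read counts per gene for all 70 samples in 1 table. STAR 2.7 and the GRCm38.p6 genome are named in the submitters' processing notes. The counting program, the annotation and the use of strand are not given in the sources used here. Of 50789 gene identifiers, 50725 matched GENCODE M21.

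Genes were filtered with filterByExpr on genotype, counts were normalized with TMM, and genotypes were compared with edgeR 4.0.16 (quasi-likelihood, robust; R 4.3.3) over the 23 cortex samples of 3 genotypes, with Benjamini-Hochberg adjustment over all tested genes and a threshold of 0.05. For the GC adjustment, each library's median deviation of log2 CPM (prior count 2) from the gene mean was removed in 20 bins of the GC content of the longest transcript. The cerebellum fit and the interaction used the same settings, and library measures were compared with exact permutation tests. DESeq2 1.42.0, other normalizations, filters, covariates and left-out libraries were tried as alternatives. The procedure was tested on simulated counts.

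The members and gene lists were chosen with earlier results of these data known. Genes were named by rule: Cic and its partners; the 12 highest and 12 lowest fold changes among protein-coding genes whose mean log2 CPM was 1 or more and that passed with and without GC adjustment; the 5 of them with the smallest p each way; up to 4 genes of each list with the smallest p; and genes that passed in cerebellum (6), against Cic-L-KO (5), only without GC adjustment (3 each way) or within 10 Mb of Cic. Genes named for other reasons are marked. Some genes that the rule gives are not reported here. Replicate numbers were not used to pair the samples in the main fit. All 77 pairs of libraries of 1 genotype differed by more than counting noise. Total counts ranged from 20763813 to 32548951 over WT and Cic-S-KO. Errors marked SD are the spread between samples, and those of log2 fold changes are standard errors from the edgeR fit.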

Additional observations from a re-analysis of the deposited data

Results flagged for a closer look

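In 13 of 228 groups of values tested, 1 sample stood apart from the rest of its group by Dixon's criterion, and chance alone marks about 1 in 20. Ngfr was 4.02 CPM in WT replicate 2, against 0.776 to 1.90 CPM in the others. Cyp1b1 was 2.25 CPM in WT replicate 6, against 4.23 to 5.50 CPM in the others. Galnt9 was 69.1 CPM in WT replicate 2, against 106 to 136 CPM in the others. Cntn1 was 500.4 CPM in WT replicate 4, against 539.6 to 569 CPM in the others. Col2a1 was 1.65 CPM in WT replicate 2, against 0.517 to 0.927 CPM in the others. Serpina3n was 6.62 CPM in Cic-S-KO replicate 4, against 7.73 to 8.55 CPM in the others. Ntsr1 was 9.34 CPM in Cic-S-KO replicate 1, against 12.2 to 14.2 CPM in the others. Rpl36a was 63.8 CPM in Cic-S-KO replicate 2, against 54.1 to 56.4 CPM in the others. Rpl37 was 86.3 CPM in Cic-S-KO replicate 2, against 72.1 to 77.1 CPM in the others. Sgk1 was 79.9 CPM in Cic-S-KO replicate 3, against 40.1 to 53.5 CPM in the others. Vgf was 550.3 CPM in Cic-S-KO replicate 5, against 452 to 492 CPM in the others. Fa2h was 55.0 CPM in Cic-S-KO replicate 1, against 38.5 to 44.6 CPM in the others. Gjc3 was 64.2 CPM in Cic-S-KO replicate 6, against 77.8 to 85.8 CPM in the others.

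For 28 of the 110 named genes the change in Cic-S-KO was not the same size in cortex as in cerebellum (edgeR interaction test, adjusted p under 0.05). Among all genes the share was 4.5%. Most named genes were chosen by their values in these cortex samples, which also enter the interaction. A share above that of all genes therefore follows in part from the choice. The differences below are log2 fold changes in cortex minus those in cerebellum. They were above 0 for Cic 0.48, Ngfr 1.58, Dusp15 0.47, Eml1 0.24, Grik5 0.20, Ints1 0.22, Ryr1 0.58, Col5a3 1.25, Col27a1 0.81, Plxnb2 0.30, Kcnt1 0.36. They were below 0 for Hapln2 -0.76, Cyp1b1 -0.85, Serpind1 -0.80, Scrg1 -0.49, Deptor -0.41, Stxbp6 -0.54, Dpy19l3 -0.36, Pacsin2 -0.29, Npy -0.71, Ntrk2 -0.22, Gfra2 -0.45, Parm1 -0.43, Rora -0.40, Rpl36a -0.39, Rpl37 -0.25, Uqcrh -0.28, Kcnj16 -0.50. The call of Kcnt1 in cortex was lost with the striatal covariate (edgeR adjusted p = 0.0797). The cause was not tested.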

How the results depend on the processing

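Of the 110 genes recomputed under the alternatives, 1 changed sign, Atxn1l, whose change was near 0: its log2 fold change was 0.0037 with genes of at least 50 mean counts and -0.022 to 0.0072 without single libraries. Calls lost with only WT and Cic-S-KO in the fit were those of Galnt9, Cd14, Glp2r, Irgq, Enpp6, Nkx2-2, Cntn1, Epb41l3, Cort, Gfra2, Bdnf, Gabra2, Dbp, Hsph1, Rpl37, Sgk1, Tek, Vgf, Tspan2, Nrcam and Hsp90b1. Without the low-count filter those of Prima1, Maml3, Galnt9, Cd14, Irgq, Nkx2-2, Cntn1, Epb41l3, Vip, Gfra2, Bdnf, Lamp5, Hsph1, Sgk1, Gjb6, Vgf, Tspan2 and Nrcam were lost, and with the replicate block those of Irgq, Nkx2-2, Cntn1, Epb41l3, Vip, Cort, Bdnf, Lamp5, Hsph1, Rpl37, Sgk1, Myrf and Nrcam. The 1108 genes became 732 without the low-count filter, 654 with only WT and Cic-S-KO in the fit, 627 with the replicate block, 253 with the replicate block and GC adjustment, 449 with GC adjustment, 503 with GC and length adjustment, 506 with striatal markers as a covariate and 212 with those and GC adjustment. The replicate block used the replicate numbers of the labels. These differ from the numbers in the library names for Cic-S-KO, and replicate 4 read 159 CPM of Y-linked genes in WT and 0 in Cic-S-KO. With a block on the number in the library name instead, 1121 genes passed. Leaving out each library gave 461 to 1536. The 387 genes became 758 with DESeq2, 219 with only WT and Cic-S-KO, 189 with the striatal covariate and 632 with the choroid plexus covariate, and 173 to 697 without single libraries. The 449 genes became 930 with DESeq2, 250 with only WT and Cic-S-KO and 253 with the replicate block, and 193 to 828 without single libraries. In cerebellum the 1370 became 591 with the replicate block and 883 to 1851 without single libraries. The interaction's 812 became 446 without the low-count filter and 462 to 1101 without single libraries. The contrast of the knockouts (5757) stayed between 5251 and 6001, and the difference in GC slope (0.0564) between 0.0506 and 0.0627, without single libraries. The cause was not tested.

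Same-numbered WT and Cic-S-KO samples had a mean correlation of 0.12 (lowest -0.08), against -0.02 for pairs of other numbers. Of 7 samples, 2 correlated best with their own number. These values do not settle whether same-numbered samples belong together. The covariates of striatal and choroid plexus markers were chosen after seeing the data. Low counts limit genes near 1 CPM, such as Gabrr2 and Sp7.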

Other observations

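Other gene groups held the changes that follow. Of 17 circadian clock genes, 3 were higher and 1 lower (against 2.83% and 3.7% of all genes). Per3, a clock repressor, was 33.2 to 42.6 CPM (median 36.6) in WT and 39.2 to 53.7 CPM (median 48.5) in Cic-S-KO (log2 fold change 0.33 ± 0.06, edgeR adjusted p = 0.00238) and was the 1 gene of the list to pass after GC adjustment. The clock output factors Dbp (0.68) and Tef (0.17) and the nuclear receptor Rora (-0.20) passed without it only. With 1 library left out, the 3 higher became 6 without WT replicate 2, the 1 lower became 2 without Cic-S-KO replicates 1, 3, 4 and 5 and WT replicate 4 and 4 without WT replicate 2, and the call of Tef (without Cic-S-KO replicate 7 and WT replicates 3 and 8, adjusted p from 0.055 to 0.0635) was lost. The calls of Dbp and Tef were also lost with the striatal covariate (edgeR adjusted p = 0.0662 and 0.0866). The hour of tissue collection was not analysed here.

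Of 12 genes of MHC class I presentation, 3 were higher and 0 lower (against 2.83% and 3.7% of all genes), with a median log2 fold change of 0.25. H2-D1, a classical class I heavy chain, was 33.7 to 37.3 CPM (median 35.3) in WT and 36.1 to 45.0 CPM (median 42.1) in Cic-S-KO (log2 fold change 0.20 ± 0.05, edgeR adjusted p = 0.0109) and passed after GC adjustment. The peptide-loading chaperone gene Tapbp (0.26) and H2-Q4 (0.53) passed without it only, and Tapbp did not pass with the striatal covariate (edgeR adjusted p = 0.0503). H2 genes are near-identical and differ between strains, so their counts are uncertain. Of 13 interferon response genes 0 passed.

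Sgk1, a kinase induced by glucocorticoids, was the 1 lower of 15 glucocorticoid response genes (-0.64 ± 0.17), of which 1 was above 0 (median -0.20). The call of Sgk1 (without Cic-S-KO replicates 2, 4, 6 and 7 and WT replicates 5, 6 and 8, adjusted p from 0.051 to 0.0713) was lost, and with the striatal covariate it was lost too (edgeR adjusted p = 0.0563). Fmr1 (-0.16) was the 1 of 6 FMRP family genes to pass, without GC adjustment only. Of 25 genes of the RAS to ERK cascade and of 22 of cholesterol synthesis, 1 each passed. Of 16 immediate early genes Bdnf alone passed, and of 7 hippocampal and 7 thalamic neuron genes 0 did (6.53% of all genes passed).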
